A study of Mus musculus with 4 samples.

Results

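Metallothioneins and the transporters, sensors and stores of zinc and iron were examined in 4 RNA-seq libraries of mouse splenic CD4+ T cells. The genes were chosen by name: Mt1 to Mt4, every Slc30a (ZnT) and Slc39a (ZIP) transporter, the zinc sensor Mtf1, and the iron genes Slc11a2, Tfrc, Fth1, Ftl1 and Ireb2. The rule found 35 genes among the 34745 of the deposited table, including the pseudogene symbol Slc39a1-ps. The set was noted because Mt1 and Mt2 were high in the Th0 library, so their levels in comparisons with that library are given as a description. At least 10 counts in some library were found for 29 genes, 3 genes had at most 1 to 9 counts, and 3 had none. Those at 0 in all 4 libraries were Mt4, Slc30a8 and Slc39a12.

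Each of the 4 groups had 1 library, and all cells came from wild-type C57BL/6 mice. The Th17 and Treg libraries were made after 3 days of culture under conditions meant for those lineages. Which cytokines were used is not stated in the labels. The Th0 library was made after 3 days of activation with antibodies to CD3 and CD28. Naive CD4+ T cells had been selected straight from the spleen, without culture. How many animals stood behind a library is not stated in the labels.

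With a single library in each group no difference has a replicate check, no p-value or SD could be given, and every interval below is a 95% interval of counting error only. Total counts were 12414372 in Th17, 10256627 in Treg, 10272122 in Th0 and 11901949 in naive. Levels are given in CPM, counts divided by the scaled library size set by TMM (a factor that aligns the bulk of the genes between libraries). The rule for calling a gene required at least 10 counts in 1 of the 2 libraries compared, a difference of at least 2-fold on the log2(CPM + 1) scale, and a counting interval that excluded equality. Folds were taken without the added 1 CPM. When the rule was run on the authors' FPKM as an alternative, 1 FPKM was added in place of 1 CPM. That addition pulls the ratios of genes near 1 FPKM toward equality. In bulk RNA, fewer cells of a type and less RNA per cell cannot be told apart.

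The libraries stood apart in ways that touch these genes. The 10 T cell markers summed to 4158 CPM in Th17, 4582 in Treg, 4451 in Th0 and 3624 in naive, and Cd4, which encodes the co-receptor, had 1001, 1199, 959 and 698 CPM in that order. Il17a, a Th17 cytokine gene, had 90.4 CPM in Th17, 14.7 in Treg, 0 in Th0 and 0.245 in naive. Foxp3, the regulatory T cell factor, had 11.3 CPM in Th17, 51.5 in Treg, 1.37 in Th0 and 129 in naive, where it was highest. Macrophage and monocyte markers summed to 55.9 CPM in Th17, 73.6 in Treg, 49.8 in Th0 and 5405 in naive. B cell markers summed to 309.6 CPM in Th17, 152 in Treg, 520.4 in Th0 and 4938 in naive, and neutrophil markers to 10.7, 5.41, 1.83 and 1482 CPM in the same order. Dendritic cell markers summed to 37.3 CPM in Th17, 45.5 in Treg, 14.0 in Th0 and 348 in naive, and erythroid and platelet markers to 1.30, 1.08, 3.55 and 229 CPM. Every comparison with the naive library therefore also compares cell mixtures, and the share of the mixture in a difference was not tested. B cell markers also differed among the cultured libraries. Called were 10 of 12 lower in Treg over Th0, 9 of 13 higher in Th17 over Treg, and 4 lower and 1 higher of 13 in Th17 over Th0. The share of that in a difference was not tested either. In Th17, Treg and Th0, at least 1 defining marker was at 0 in each of these libraries for neutrophils, dendritic cells and the erythroid and platelet list, while none was at 0 in naive.

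Zinc in the cytosol of a mammalian cell is set by transport and by buffering. ZIP proteins bring zinc into the cytosol, ZnT proteins move it out of the cell or into compartments, and metallothioneins, small cysteine-rich proteins, bind it. The transcription factor Mtf1 senses zinc and activates Mt1, Mt2 and the zinc exporter gene Slc30a1 through short metal response elements. Iron enters dividing T cells mainly on transferrin through the receptor encoded by Tfrc, leaves the endosome through the Slc11a2 product, and is stored in ferritin shells made of Fth1 and Ftl1 chains. Iron regulatory proteins, among them the Ireb2 product, bind hairpins in the ferritin and transferrin receptor mRNAs.

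Mt1 and Mt2 had the widest ranges among the genes of the set with a count in every library. Mt1 (ENSMUSG00000031765, chromosome 8, 94179089 to 94180325, plus strand, GRCm38) had 26.6 CPM in Th17 (interval 23.9 to 29.5), 12.2 in Treg (10.2 to 14.4), 304 in Th0 (293 to 316) and 7.35 in naive (5.91 to 9.03). Mt2 (ENSMUSG00000031762, chromosome 8, 94172618 to 94173567, plus strand) had 12.8 CPM in Th17 (10.9 to 14.9), 7.48 in Treg (5.96 to 9.28), 212 in Th0 (203 to 222) and 1.88 in naive (1.19 to 2.82). The order was the same for both genes, Th0 first, then Th17, Treg and naive, and none of these counting intervals overlapped between libraries.

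**Figure D1:**
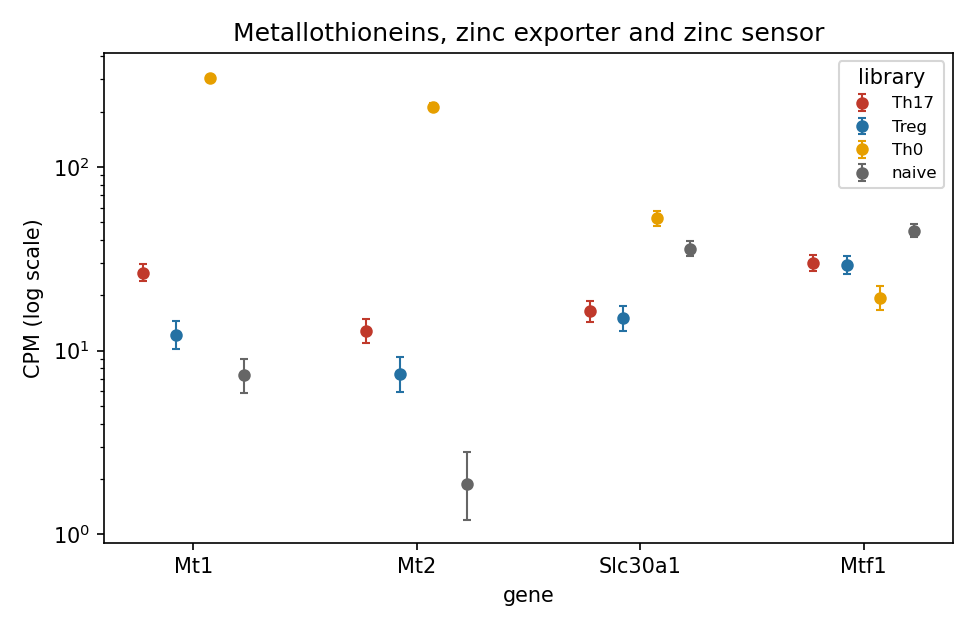
Levels of Mt1, Mt2, Slc30a1 and Mtf1 in CPM on a log scale, 1 point per library with its 95% counting interval. Mt1 and Mt2 stand at 304 and 212 CPM in Th0 and at 26.6 CPM or less in the other libraries, Slc30a1 is highest in Th0 at 52.5 CPM, and Mtf1 is lowest there at 19.3 CPM.

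Per gene length, Mt1 stood at rank 68 and Mt2 at rank 108 of all genes by FPKM in Th0. In Th17 the ranks were 756 for Mt1 and 1969 for Mt2, in Treg 1974 and 3358, and in naive 3481 and 8314. The summed FPKM of the metallothionein genes was 76.7 in Th17, 39.1 in Treg, 806 in Th0 and 17.5 in naive. The ratio of Mt1 to Mt2 FPKM within a library was 2.14 in Th17 (interval 1.77 to 2.59), 1.67 in Treg (1.26 to 2.23), 1.47 in Th0 (1.39 to 1.57) and 4.03 in naive (2.53 to 6.68). Mt1 thus exceeded Mt2 in each of the 4 libraries, with the ratio highest in naive, where Mt2 rested on 23 counts.

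Th0 over naive, the ratio was 41.4-fold for Mt1 (interval 33.5 to 51.6) and 113-fold for Mt2 (75.1 to 179). Mt1 was 11.4-fold lower in Th17 than in Th0 (10.2 to 12.8) and 25.0-fold lower in Treg (21.0 to 29.9). Mt2 was 16.6-fold lower in Th17 than in Th0 (14.2 to 19.5) and 28.4-fold lower in Treg (22.8 to 35.8). These values are a description, since the genes were picked for their Th0 level, and the Th17 and Treg ratios share the same Th0 library. The comparison without that library gave 2.18-fold more Mt1 in Th17 than in Treg (1.79 to 2.69), a call that was lost with 5 CPM added in place of 1. Mt2 was 1.71-fold higher in Th17 than in Treg (1.31 to 2.25) and was not called.

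Mt3, which encodes a metallothionein best known from brain, had 2 counts in Th17, 1 in Treg, 12 in Th0 and 0 in naive. Set against a floor of 3 counts for naive, the 12 counts of Th0 made it at least 5.61-fold higher in Th0 than in naive, and the counting interval of the ratio began at 3.89-fold. Its Th17 level was below the Th0 level by a ratio of 9.01 (interval 2.01 to 82.9) and its Treg level by 15.2 (2.25 to 651). These calls were met under 4, 2 and 3 of 4 scalings, and all of them were lost with 5 CPM added. Mt4, a metallothionein of stratified epithelium, had no count, and the floor of 3 counts that a 0 allows was 0.229 CPM in Th17, 0.271 in Treg, 0.343 in Th0 and 0.245 in naive.

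The genes around the metallothionein cluster were read as well. Of the 6 neighbours examined, Bbs2, Ogfod1, Nup93 and Herpud1 were called neither in Th0 over naive nor in Th17 over Th0, and Slc12a3 had too few counts to be tested in Th17 over Th0. Nudt21, which encodes an mRNA cleavage factor, had 24.4 CPM in Th17, 23.3 in Treg, 55.9 in Th0 and 21.6 in naive, and it was called higher in Th0 than in naive and lower in Th17 than in Th0.

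The upstream sequences of Mt1, Mt2 and Slc30a1 are shown because Mtf1 is known to act on these genes and all of them were highest in Th0. They were searched on both strands for TGCACNC and TGCGCNC, letter patterns of the core of a metal response element, in RefSeq windows of 250 bases before to 50 after the annotated start (GRCm38.p6). The 250 upstream bases are printed 5′ to 3′ on the gene's strand, with matches in capitals. The Mt1 stretch lies at chr8:94178839-94179088, Mt2 at chr8:94172368-94172617 and Slc30a1 at chr1:191906531-191906780, all on the plus strand.
Mt1: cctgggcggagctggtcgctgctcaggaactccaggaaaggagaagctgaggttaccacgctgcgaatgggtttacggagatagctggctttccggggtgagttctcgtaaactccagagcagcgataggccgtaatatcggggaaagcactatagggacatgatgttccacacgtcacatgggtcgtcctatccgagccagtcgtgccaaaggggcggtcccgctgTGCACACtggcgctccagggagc
Mt2: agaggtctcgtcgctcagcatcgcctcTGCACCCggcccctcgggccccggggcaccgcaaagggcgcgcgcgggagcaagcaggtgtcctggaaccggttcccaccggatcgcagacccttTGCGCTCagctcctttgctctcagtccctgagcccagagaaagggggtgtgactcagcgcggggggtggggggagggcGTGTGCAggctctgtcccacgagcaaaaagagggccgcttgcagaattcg
Slc30a1: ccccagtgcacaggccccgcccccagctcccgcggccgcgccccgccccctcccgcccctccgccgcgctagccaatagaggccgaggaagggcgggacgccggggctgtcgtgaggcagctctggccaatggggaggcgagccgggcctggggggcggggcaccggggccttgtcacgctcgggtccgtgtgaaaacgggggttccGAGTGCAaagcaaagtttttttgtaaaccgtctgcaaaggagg

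The whole windows held 3 matches for Mt1, 4 for Mt2 and 2 for Slc30a1, of which 1, 3 and 1 lay upstream of the start. Of 32851 mouse promoters, 25.7% held at least 1 match, 7.11% at least 2, 1.97% at least 3 and 0.517% at least 4. Among the 36 promoters of the 29 genes of the set found in the RefSeq table, 17 (47.2%) held a match. Slc30a4 and Slc30a10 had 3 matches each, and Slc30a2 had 2. Tfrc had 2 in the first of its 2 windows, and the remaining promoters had at most 1. The windows follow the RefSeq starts, and other start sites of these genes were not used here. The start of Mt1 in most use may lie downstream of the annotated one, in which case the printed stretch would miss part of its proximal promoter. A match is a letter pattern and does not show that a factor was bound.

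Mtf1 (chromosome 4, 124802104 to 124849800) had the opposite order to the metallothionein genes between Th0 and naive. Its level was 30.0 CPM in Th17, 29.2 in Treg, 19.3 in Th0 and 45.1 in naive, so Th0 was lowest and naive highest. It was 2.33-fold lower in Th0 than in naive (interval 1.96 to 2.79). With 1 FPKM added to the authors' FPKM (1.10 in Th0, 3.11 in naive), the log2 ratio was -0.97 and the call was lost. The call was also lost, at a log2 ratio of -0.71, when counts of the antisense gene 1110065P20Rik, sharing 721 exon bases, were added. Strandedness of the libraries is not given, so the reads of such a pair cannot be told apart. Neither Th17 over Th0 (1.55-fold) nor Treg over Th0 (1.51-fold) was called for Mtf1.

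Slc30a1 encodes the ZnT protein of the plasma membrane that exports zinc from the cell. It had 16.4 CPM in Th17 (interval 14.3 to 18.7), 15.0 in Treg (12.8 to 17.4), 52.5 in Th0 (47.8 to 57.6) and 35.9 in naive (32.7 to 39.5). Th17 and Treg overlapped, and both lay below Th0 and naive. Slc30a1 was 3.21-fold lower in Th17 than in Th0 (2.72 to 3.79) and 3.51-fold lower in Treg (2.93 to 4.22), and both calls were met under 4 of 4 scalings. Th0 was 1.46-fold above naive (1.28 to 1.67), which was not called.

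Most other ZnT genes encode proteins that load zinc into compartments. Slc30a4, whose product serves endosomes and lysosomes, had 94.2 CPM in Th17, 79.3 in Treg, 50.9 in Th0 and 19.9 in naive. It was called higher in Th0 than in naive (2.56-fold, interval 2.18 to 3.00), although not on the authors' FPKM, and its Th17 ratio to Th0 (1.85-fold) passed the threshold only when library totals, upper quartile scaling or FPKM was used. Slc30a2, a vesicle transporter, had 32 counts in Th17, 44 in Treg, 33 in Th0 and 3 in naive. Its ratio of Th0 to naive was 15.4 (interval 4.84 to 78.6), a call lost with 5 CPM added. It was also lost when 1 FPKM was added to FPKM of 0.453 in Th0 and 0.0355 in naive.

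Slc30a5 and Slc30a6, whose products pair in the early secretory pathway, were within 1.51-fold between any compared libraries. Slc30a5 had 56.9 CPM in Th17, 59.0 in Treg, 85.9 in Th0 and 73.0 in naive, and Slc30a6 had 13.2, 9.38, 12.9 and 11.8 CPM in that order. Slc30a7, a Golgi transporter, was lowest in Th0 at 62.8 CPM, with 94.3 in Th17, 105 in Treg and 83.1 in naive. Slc30a9, linked to mitochondrial zinc, had 175 CPM in Th17, 112 in Treg, 149.6 in Th0 and 79.5 in naive. None of these 4 genes was called in any comparison. Slc30a3, known from synaptic vesicles, had at most 7 counts, and Slc30a10, known as a manganese exporter, had 6 counts in naive and 0 elsewhere.

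**Figure D2:**
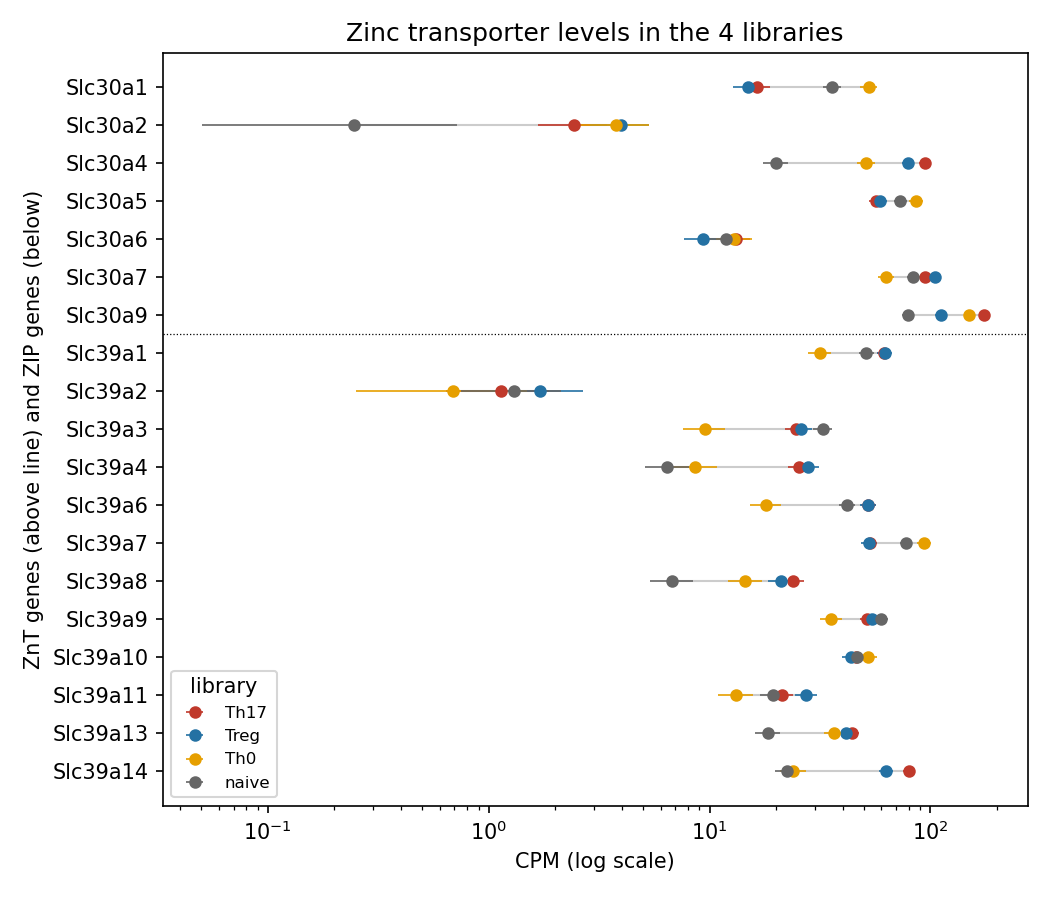
CPM on a log scale of the 7 ZnT genes (above the dotted line) and 12 ZIP genes (below it) with at least 10 counts in some library, with 95% counting intervals and grey lines spanning the libraries. Slc39a3 and Slc39a6 are lowest in Th0 at 9.50 and 18.0 CPM, and Slc39a14 stands at 80.2 CPM in Th17 and 62.9 CPM in Treg against 23.9 CPM in Th0.

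Among the 12 ZIP genes, 4 were called higher in Th17 than in Th0, against 20.1% of all genes tested, and 4 in Treg than in Th0, against 20.2%. They were Slc39a3, Slc39a4, Slc39a6 and Slc39a14 in each case, and the comparisons share the Th0 library. Slc39a14 (chromosome 14, 70303469 to 70351425), whose product carries zinc, iron and manganese, had 80.2 CPM in Th17, 62.9 in Treg, 23.9 in Th0 and 22.4 in naive. It was 3.35-fold higher in Th17 than in Th0 (interval 2.89 to 3.91) and 2.63-fold higher in Treg than in Th0 (2.25 to 3.09). Th0 and naive lay within 1.07-fold of each other for this gene.

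Slc39a4 (chromosome 15, 76612385 to 76616852), the gene of the main zinc importer of the gut, had 25.3 CPM in Th17, 27.9 in Treg, 8.59 in Th0 and 6.45 in naive. It was 2.95-fold higher in Th17 than in Th0 (2.29 to 3.84) and 3.25-fold higher in Treg than in Th0 (2.51 to 4.23). Like Slc39a14, it was low in both Th0 and naive. Slc39a8, whose product carries zinc and manganese, was also lowest in naive, with 23.9 CPM in Th17, 21.0 in Treg, 14.5 in Th0 and 6.78 in naive. Its Th0 to naive ratio of 2.14-fold had a log2 ratio of 0.998 after 1 CPM was added, just under the threshold. It passed with DESeq2 size factors or 0.25 CPM added.

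Slc39a6 and Slc39a3 had another order, with Th0 alone low. Slc39a6 (chromosome 18, 24579881 to 24603817), whose human counterpart has been studied in T cell activation, had 52.4 CPM in Th17, 52.4 in Treg, 18.0 in Th0 and 42.0 in naive. It was 2.34-fold lower in Th0 than in naive (1.95 to 2.81), 2.91-fold higher in Th17 than in Th0 (2.45 to 3.49) and 2.92-fold higher in Treg than in Th0 (2.44 to 3.50). Slc39a3, which encodes a zinc importer, had 24.7 CPM in Th17, 26.1 in Treg, 9.50 in Th0 and 32.5 in naive. Th0 was 3.42-fold below naive (2.69 to 4.39), while Th17 was 2.60-fold above Th0 (2.04 to 3.35) and Treg 2.74-fold above it (2.14 to 3.54). The Th17 call was lost on FPKM (2.33 in Th17, 0.721 in Th0), with a log2 ratio of 0.95 after 1 FPKM was added. All calls of these 4 ZIP genes were met under 4 of 4 scalings, among which FPKM is not counted.

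Of the 12 ZIP genes with at least 10 counts, 6 were lowest in Th0, 4 in naive, 2 in Treg and 0 in Th17. The matching shares of all genes were not counted, so no trait of the ZIP genes is read from this order. Slc39a1, a plasma membrane importer gene, had 61.6 CPM in Th17, 62.0 in Treg, 31.6 in Th0 and 51.2 in naive. Its ratios of 1.95-fold in Th17 and 1.96-fold in Treg over Th0 fell just under the threshold and passed it with library totals, upper quartile scaling or FPKM. Slc39a11 had 21.2, 27.3, 13.2 and 19.4 CPM in Th17, Treg, Th0 and naive. Its Treg to Th0 ratio of 2.08-fold was at the edge of the rule, since the log2 ratio after adding 1 CPM was just below the threshold. Slc39a9, whose Golgi transporter gene overlaps Erh on the opposite strand, had 51.9 CPM in Th17, 54.6 in Treg, 35.6 in Th0 and 60.0 in naive.

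Slc39a7, which encodes the ZIP protein that releases zinc from the endoplasmic reticulum, ran the other way. It had 53.4 CPM in Th17, 52.8 in Treg, 93.6 in Th0 and 77.7 in naive and was called in no comparison. The gene shares 2084 exon bases with Gm20427 on the same strand, which had 381 counts in Th17, 285 in Treg, 73 in Th0 and 101 in naive. With those counts added, the log2 ratio of Slc39a7 was -0.30 in Th17 over Th0 and -0.37 in Treg over Th0, against -0.80 and -0.81 without them.

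Slc39a10, a gene close in sequence to Slc39a6, varied least, with 45.8 CPM in Th17, 43.6 in Treg, 52.2 in Th0 and 46.3 in naive. Slc39a13, a ZIP gene known from connective tissue, had 44.0 CPM in Th17, 41.3 in Treg, 36.7 in Th0 and 18.4 in naive, with a log2 ratio of 0.96 for Th0 over naive that was not called. Slc39a2 had between 6 and 19 counts in the 4 libraries and shares exon bases with Mettl17. Slc39a5 had 2 counts in naive and 0 elsewhere. The pseudogene symbol Slc39a1-ps, near-identical to Slc39a1, had 16 counts in Th17, 9 in Treg, 2 in Th0 and 4 in naive.

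Per gene length, the ZIP genes summed to 98.3 FPKM in Th17, 102 in Treg, 51.7 in Th0 and 76.9 in naive. The ZnT genes summed to 58.3 FPKM in Th17, 53.8 in Treg, 52.3 in Th0 and 49.0 in naive. The ZIP sum was therefore lowest in Th0, the library in which the metallothionein sum was highest, and the ZnT sum was lowest in naive. These sums use the authors' FPKM, which carry no TMM scaling. The gene length behind the FPKM of Slc39a7 exceeds its locus, so the weight of single genes in these sums is uncertain. In TMM-scaled CPM, without regard to length, the ZIP genes summed to 486 in Th17, 474 in Treg, 338 in Th0 and 384 in naive, and the ZnT genes to 453, 383, 419 and 304 in that order.

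Tfrc (chromosome 16, 32608920 to 32632794), the transferrin receptor gene, had 289.6 CPM in Th17, 197 in Treg, 189 in Th0 and 86.4 in naive, with naive lowest. Slc11a2 (chromosome 15, 100387898 to 100425072), which encodes the endosomal iron exporter, had 107 CPM in Th17, 89.8 in Treg, 109 in Th0 and 41.8 in naive. Both were called higher in Th0 than in naive, Tfrc at 2.19-fold (interval 2.03 to 2.37) and Slc11a2 at 2.60-fold (2.34 to 2.90). The Tfrc call was met under 2 of 4 scalings, and both calls were lost on FPKM with 1 FPKM added. The Slc11a2 FPKM were 12.8 in Th0 and 5.95 in naive, and those of Tfrc 16.7 and 9.22. Tfrc was 1.53-fold higher in Th17 than in Th0 and 1.47-fold higher in Th17 than in Treg, neither of which was called.

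Ferritin heavy and light chain genes did not keep a fixed proportion. Fth1 (chromosome 19, 9982703 to 9985092), the chain that oxidises iron, had 887 CPM in Th17, 686 in Treg, 760.2 in Th0 and 1116 in naive. Ftl1 (chromosome 7, 45457944 to 45459884), the light chain, had 463 CPM in Th17, 323 in Treg, 893 in Th0 and 1292 in naive. Ftl1 was 2.77-fold lower in Treg than in Th0 (interval 2.66 to 2.88), which was called, and 1.93-fold lower in Th17, which among the other scalings passed with DESeq2 size factors only. Fth1 was called in no comparison.

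In the authors' FPKM, the ratio of Ftl1 to Fth1 was 0.160 in Th17 (interval 0.155 to 0.165), 0.144 in Treg (0.138 to 0.1498), 0.360 in Th0 (0.348 to 0.372) and 0.355 in naive (0.346 to 0.363). Th17 and Treg thus lay apart from Th0 and naive, and the ratio does not depend on the scaling between libraries. The gene length behind the Ftl1 FPKM exceeds its locus, so only the change of the ratio between libraries is read, not its size. In counts, Ftl1 was above Fth1 in Th0 (7799 and 6641) and naive (15816 and 13671), and below it in Th17 and Treg. Ftl1 has near-identical copies, and reads may be split among them. The largest in counts was Gm10116, at 97.3% identity, with 1027 counts in Th17, 841 in Treg, 1588 in Th0 and 2545 in naive. With these added, the log2 ratio of Treg over Th0 was -1.43 and the call was kept. In naive the ferritin levels stood beside 5405 CPM of macrophage and monocyte markers, cells rich in ferritin, and the part of those cells was not tested.

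**Figure D3:**
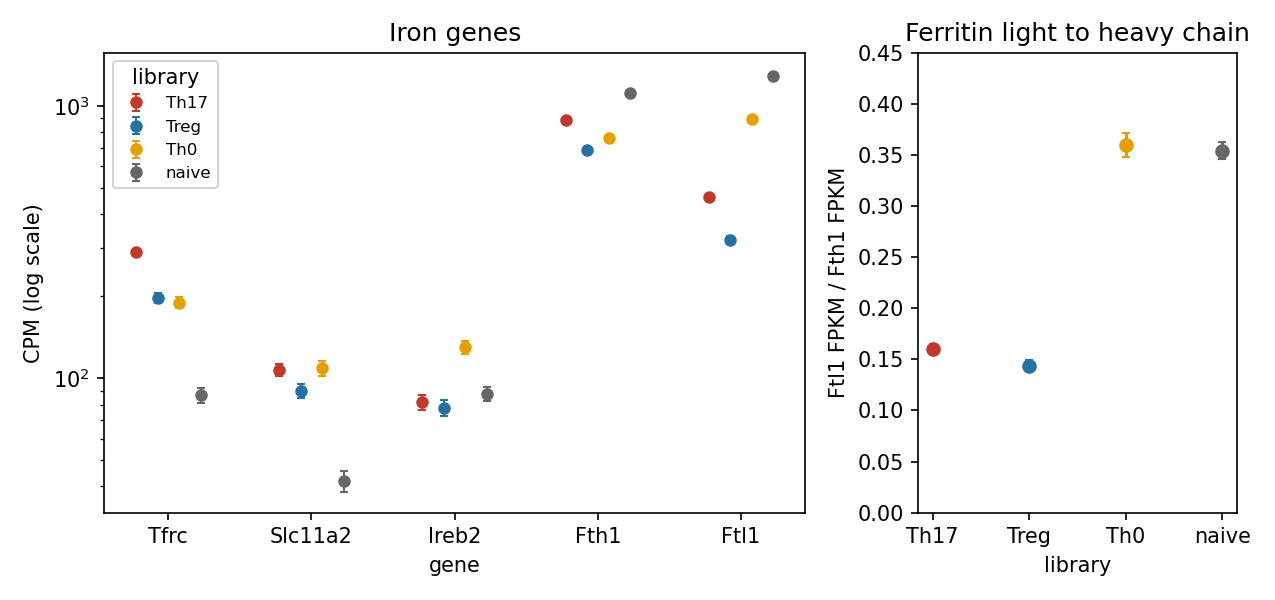
Left, CPM on a log scale of the 5 iron genes, and right, the ratio of Ftl1 to Fth1 FPKM within each library, all with 95% counting intervals. Tfrc and Slc11a2 are lowest in naive at 86.4 and 41.8 CPM, and the ferritin ratio is 0.160 in Th17 and 0.144 in Treg against 0.360 in Th0.

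Ireb2, which encodes an iron regulatory protein, had 81.4 CPM in Th17, 77.8 in Treg, 129.7 in Th0 and 87.6 in naive and was called in no comparison. The hairpins to which such proteins bind are shown for the genes of the set because they link ferritin and transferrin receptor mRNA to iron. Transcripts of GENCODE (GRCm38) were searched on the sense strand for the iron responsive element, a loop of CAGTGN on a paired stem. The last loop base could not be G, and 5 stem pairs next to the loop were required, with a C before them. Below that C, at least 4 of 5 bases had to pair. The sites of 27 bases are printed 5′ to 3′ with the loop in capitals. The Fth1 site (chr19:9982733-9982759, plus strand) and the Ftl1 site (chr7:45459780-45459806, minus strand) lie in the 5′ UTR. Those of Tfrc lie in the 3′ UTR on the plus strand and start at chromosome 16 positions 32631220, 32631599, 32631664 and 32631711.
Fth1: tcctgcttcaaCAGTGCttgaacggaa
Ftl1: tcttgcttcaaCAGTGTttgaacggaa
Tfrc, from 32631220: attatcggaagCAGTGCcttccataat
Tfrc, from 32631599: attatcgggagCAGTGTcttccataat
Tfrc, from 32631664: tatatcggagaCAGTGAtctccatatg
Tfrc, from 32631711: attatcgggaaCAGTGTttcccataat

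A match in the 5′ UTR was found in 6 of 21200 genes with an annotated one (0.0283%) and in the 3′ UTR in 7 of 21849 (0.032%). Besides Fth1, Ftl1 and its copy, the 5′ UTR matches were Alas2, Slc40a1 and Ppp1r1b. No match elsewhere, as for Slc11a2, says only that this strict pattern was not found. Hairpins that depart from it would be missed, also in Tfrc.

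Counted over all members tested, Th0 differed from naive in 10 of 28 genes, 7 higher and 3 lower. The higher ones were Mt1, Mt2, Mt3, Slc30a2, Slc30a4, Tfrc and Slc11a2, and the lower ones Mtf1, Slc39a3 and Slc39a6. Of all 13995 genes tested 45.7% were called, 18.5% higher and 27.2% lower, so the share of the set, 35.7%, was below the background. Nothing is read from the metallothionein calls among them, for which the set was chosen. The median log2 ratio was 0.25 over the set and -0.13 over all genes.

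Th17 differed from Th0 in 8 of 29 genes. Called higher were Slc39a3, Slc39a4, Slc39a6 and Slc39a14, and called lower were Mt1, Mt2, Mt3 and Slc30a1. Among all 13324 genes tested, 20.1% were called higher, 12.4% lower and 32.5% in either direction, against 27.6% of the set. The share of the set includes the metallothionein calls, for which the set was chosen, and nothing is read from them. Within the ZIP genes 4 of 12 (33.3%) were called higher and 0 lower. A ratio above 1 was found for 10 of 12, and for 7103 of the 13324 genes tested. The median log2 ratio of the ZIP genes was 0.66, against 0.09 over all genes.

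Treg differed from Th0 in 9 of 28 genes, with Slc39a3, Slc39a4, Slc39a6 and Slc39a14 higher and with Mt1, Mt2, Mt3, Slc30a1 and Ftl1 lower. The background was 20.2% higher, 12.0% lower and 32.2% in either direction over 13138 genes, and 32.1% of the set was called. Here too the share of the set includes the metallothionein calls, from which nothing is read. The ZIP genes had a median log2 ratio of 0.82, against 0.08 over all genes. As both sets of ratios rest on 1 Th0 library, what is particular to that library and what is particular to the Th17 and Treg conditions cannot be told apart.

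Th17 and Treg differed from each other in 1 of 28 genes, Mt1, and in none was Th17 called lower. Over 13346 genes 3.15% were called, 1.91% higher and 1.24% lower, so the share of the set, 3.57%, was near the background. The ZIP genes had a median log2 ratio of -0.005 between these libraries. The 5 iron genes all had a ratio above 1, none of them called, with Tfrc (1.47-fold) and Ftl1 (1.43-fold) farthest from equality. Of all 13346 genes tested, 6644 had a ratio above 1.

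**Figure D4:**
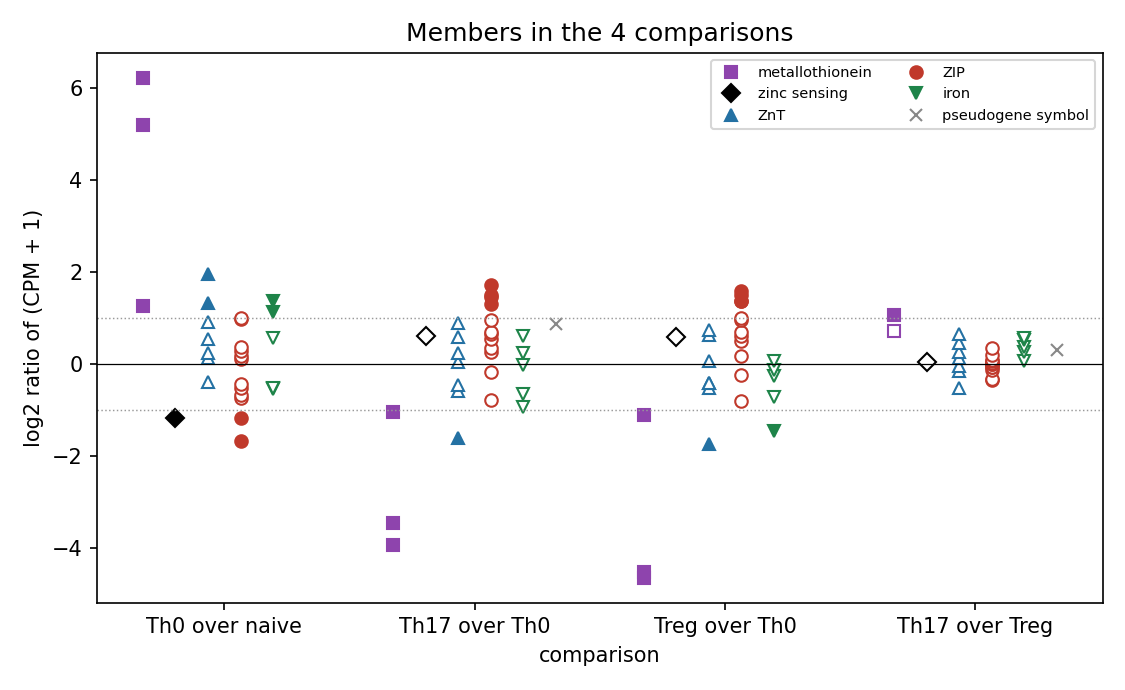
Log2 ratio of (CPM + 1) of each gene tested in the 4 comparisons, with filled symbols for genes called and open ones for genes not called, by role, and dotted lines at 2-fold. Mt1 and Mt2 are filled at the top for Th0 over naive and at the bottom for Th17 and Treg over Th0. Mt3 is filled nearer the 2-fold lines in these comparisons. In Th17 and Treg over Th0, 4 ZIP genes are filled on the higher side.

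The choice of scaling bears on these counts because the TMM factor was 1.06 in Th17, 1.08 in Treg, 0.850 in Th0 and 1.03 in naive. With library totals the median log2 ratio of all genes moved by -0.24 in Th0 over naive, 0.28 in Th17 over Th0 and 0.31 in Treg over Th0, and with upper quartile scaling by -0.12, 0.13 and 0.14. Over all genes the share of calls that were higher was 40.5% with TMM and 29.6% with library totals in Th0 over naive. It was 61.9% with TMM, 79.3% with totals and 71.2% with upper quartile in Th17 over Th0, and 62.7%, 81.8% and 72.5% in Treg over Th0. For the set, the split of higher to lower calls with library totals was 6 to 4 in Th0 over naive, 6 to 3 in Th17 over Th0 and 7 to 4 in Treg over Th0. With upper quartile scaling it was 6 to 3, 6 to 3 and 6 to 5. The 4 ZIP calls, Slc30a1, Mt1 and Mt2 kept their direction and call under all 4 scalings.

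Genes of the same pathways that the naming rule left out were read as lists. In Th0 over naive, 4 of 12 other zinc and copper genes were called higher and 3 lower, against 18.5% and 27.2% of all genes tested. The higher ones included Cox17, a copper chaperone of mitochondria, at 68.0 CPM in Th0 and 11.7 in naive, and Slc31a1, the copper importer gene, at 53.8 and 17.7 CPM. In Th17 over Th0 the list had 2 higher and 1 lower of 12, against 20.1% and 12.4% of all genes tested. In Treg over Th0 it had 2 and 1 of 11, against 20.2% and 12.0%. In Th17 over Treg it had 0 and 0 of 12, against 1.91% and 1.24%. Trpm7, a channel that passes zinc and magnesium, was lower than in Th0 in both, with 137 CPM in Th17, 126 in Treg and 307 in Th0.

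In Th0 over naive, 4 of 23 other iron genes were called higher and 6 lower. Over all genes tested 18.5% were higher and 27.2% lower, so these counts were near the background. Hmox1, which encodes the haem-degrading oxygenase, had 31.5 CPM in Th17, 28.6 in Treg, 14.0 in Th0 and 718 in naive. Slc40a1, the iron exporter gene, had 19 counts in Th17, 9 in Treg, 1 in Th0 and 4387 in naive. Trf (transferrin) was low in all cultured libraries as well, with 4.50 CPM in Th17, 10.01 in Treg, 1.83 in Th0 and 277 in naive. Hmox1 and Slc40a1 are known from splenic macrophages, Slc40a1 is also in the macrophage list, and the markers of that list stood at 5405 CPM in naive. How far those cells account for the iron genes was not tested. Fbxl5, a gene of iron-dependent turnover of the Ireb2 product, had 85.6 CPM in Th17, 78.9 in Treg, 224 in Th0 and 85.1 in naive and was called against Th0 in each case. The list had 2 higher and 2 lower of 20 in Th17 over Th0, against 20.1% and 12.4% of all genes tested. It had 3 and 3 of 19 in Treg over Th0, against 20.2% and 12.0%. In Th17 over Treg it had 0 and 1 of 20, against 1.91% and 1.24%.

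Heat shock genes are known to respond to heat and to metals. In Th0 over naive 7 of 15 tested were called higher and 0 lower, and the median log2 ratio of the 15 was 0.80. The background there was 18.5% higher and 27.2% lower. Among those not called, Hsph1, which encodes a co-chaperone, had 298 CPM in Th0 and 402 in naive, and Chordc1 had 111 and 198 CPM. Hsf1 had 48.0 and 77.4 CPM, and Bag3 21.7 and 24.7 CPM in that order. The others not called were above naive, Hsp90ab1 1.61-fold, Hspd1 1.74-fold, Dnaja1 1.56-fold and Hspa8 1.14-fold. In Th17 over Th0 and in Treg over Th0, 12 of 15 were lower and 0 higher, with medians of -2.499 and -2.48. Over all genes tested, 12.4% and 12.0% were lower and 20.1% and 20.2% higher in these comparisons. Hspa1b, an inducible chaperone gene near-identical to Hspa1a, had 7.16 CPM in Th17, 1.80 in Treg, 612 in Th0 and 20.9 in naive. Hspb1, a small heat shock protein gene, had 0.838 CPM in Th17, 0.0902 in Treg, 30.6 in Th0 and 0.490 in naive. In Th17 over Treg 2 of 15 were higher, Hspa1a and Hspa1b, and 0 lower, against 1.91% and 1.24% of all genes tested. The part of these differences in those of the metallothionein genes was not tested.

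Lists of other responses that can involve metallothioneins were counted too. Over all genes, 18.5% were higher and 27.2% lower in Th0 over naive, 20.1% and 12.4% in Th17 over Th0, 20.2% and 12.0% in Treg over Th0, and 1.91% and 1.24% in Th17 over Treg, and several of the list counts lay near these shares. Genes of the Nrf2 oxidative stress response had 1 higher and 7 lower of 14 in Th0 over naive, 4 and 1 in Th17 over Th0, 2 and 1 in Treg over Th0, and 0 and 0 in Th17 over Treg. Glucocorticoid response genes had 1 higher and 3 lower of 10 in Th0 over naive, 3 and 2 in Th17 over Th0, 3 and 1 in Treg over Th0, and 1 and 0 in Th17 over Treg. Hypoxia response genes had 5 higher and 3 lower of 14 in Th0 over naive, 9 and 0 in Th17 over Th0, 6 and 0 in Treg over Th0, and 6 and 0 in Th17 over Treg. Slc2a1, the glucose transporter gene of the hypoxia list, had 327 CPM in Th17, 120.3 in Treg, 18.5 in Th0 and 43.1 in naive.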

How the data were processed

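RNA-seq of 4 libraries was analysed from 1 gene table. In it the authors deposited raw read counts, which are whole numbers, beside FPKM. The deposited FPKM equalled the count divided by a fixed gene length and the library's total (tolerance 0.1%) in 8988 of 8988 genes that reached 50 counts in every library. The submitters' processing notes name Bowtie2, RSEM, GRCm38.p6 and mm10, without versions. The sources used here do not give strandedness or annotation.

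Counts were scaled by TMM over genes with at least 10 counts in some library (edgeR 4.0.16, R 4.3.3). Ratios used log2(CPM + 1), which understates low genes. Intervals were 95% exact: Poisson for levels and conditional (Clopper-Pearson) for ratios. Reads carry no molecular identifiers, so they cover counting error only. A count of 0 was set to 3 counts for bounds. Depth made 1 count worth 0.0762 CPM in Th17, 0.0902 in Treg, 0.114 in Th0 and 0.0817 in naive. No test between conditions was possible.

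Named were all members with their values, and of each list up to 4 called genes. Of the heat shock list, the genes not called in Th0 over naive were named too. Members and lists (6 of pathways, 6 of cell markers) were chosen with earlier results of these data known. All 35 members were found in GENCODE vM21. Copies were sought with blastn 2.17.0 (at least 200 bases at 95% identity). Alternatives covered scaling (with DESeq2 1.42.0), added CPM, count minimum, FPKM, thinning and threshold. Other software was scipy 1.17.1, pandas 2.3.3, numpy 2.4.6, matplotlib 3.10.9 and Python 3.11.15.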

Additional observations from a re-analysis of the deposited data

How the results depend on the processing

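No paired analysis was possible because each group had 1 library, and for the same reason no replicate could be left out. Of 28 calls of single genes, 18 were kept under every other scaling, added CPM, count minimum, unit and depth that gave a value. Of these calls, 0 reversed direction. Of 85 ratios without a call, 76 had none under these settings either. Some of the uncalled ratios changed sign, such as Fth1 in Treg over Th0, with log2 ratios from -0.21 to 0.20. With at least 50 counts required, Mt3 and Slc30a2 gave no value. In Th0 over naive, the 7 higher genes became 3 on FPKM and 3 at a 3-fold threshold, and the 3 lower ones 5 at 1.5-fold and 1 at 3-fold. In Th17 over Th0, 11 were higher and 7 lower at 1.5-fold, and 1 higher at 3-fold. In Treg over Th0, 7 were higher with library totals, 9 at 1.5-fold and 1 at 3-fold, and 3 were lower at 3-fold. In Th17 over Treg, 0 were higher with 5 CPM added, 3 at 1.5-fold and 0 at 3-fold. A change of threshold, scaling or added CPM moves these counts by its construction. The FPKM setting carried no TMM scaling and added 1 FPKM in place of 1 CPM. Before that addition its ratios are those of library totals, with which 6 were higher in Th0 over naive. TMM over the cultured libraries without naive left the counts at 4 higher and 4 lower, 4 and 5, and 1 and 0 in the comparisons among them. Adding the counts of near-identical or overlapping genes, an alternative chosen after seeing the data, ended the call of Mtf1 in Th0 over naive. Depth limits Mt3, Slc30a2 and Slc39a2, whose ratios rest on 33 counts or fewer in Th0.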
